A study of Homo sapiens with 6 samples.

Results

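The loci described here are the surroundings of 10 human genes that encode subunits of the NuA4/TIP60 complex: KAT5, EPC1, ING3, EP400, RUVBL1, RUVBL2, DMAP1, YEATS4, TRRAP and BRD8. Their peaks were taken by position: a peak belonged to a locus when its summit lay within 100 kb of the gene's start, with starts given on hg19 in steps of 1 kb. Of 35687 peaks in 3 deposited ChIP-seq lists, 81 met this rule, or 0.227%. They were 26 of 9769 BRD8 peaks in Calu3, 23 of 9505 BRD8 peaks in 16HBE14o- and 32 of 16413 CTCF peaks in Calu3.

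Calu3 is a human lung adenocarcinoma line and 16HBE14o- a human bronchial epithelial line. Neither was treated, and per the labels all cultures were grown in DMEM with 10% FBS. BRD8 was precipitated in both lines with an Active Motif antibody and CTCF in Calu3 with a Millipore antibody, in 2 replicates each. Each list pools the replicates of its experiment, so no spread between replicates could be given, no test was made, and the depth behind a peak is unknown. Peak lists hold no expression values, so the identity of the lines could not be checked against marker genes.

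NuA4/TIP60 is a large chromatin complex that acetylates the tails of histones H4 and H2A and exchanges histone variants in nucleosomes. KAT5, also called TIP60, is its acetyltransferase. BRD8 is the subunit with a bromodomain, a fold that binds acetylated lysine, so the BRD8 lists were searched here at the genes for BRD8 itself and for its partners. CTCF, a DNA-binding protein with a chain of zinc fingers, occupies insulators, loop anchors and many promoters.

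BRD8 peaks were listed near most of the 10 genes, and often at their starts. In Calu3, 9 of the 10 windows held a BRD8 peak, and in 16HBE14o- 8 did. Every window held a CTCF peak. As background, consecutive tiles of 200 kb, the width of a window, were counted over the whole genome: 28.2% held a Calu3 BRD8 summit, 32.4% a 16HBE14o- BRD8 summit and 43.5% a CTCF summit. The mean per window was 2.6 Calu3 BRD8 peaks, 2.3 16HBE14o- BRD8 peaks and 3.2 CTCF peaks, against 0.643, 0.626 and 1.08 per tile. The tiles include gene-poor and unassembled sequence, and windows around the starts of all other genes were not used here, so these values describe gene surroundings against the genome and not these genes against other genes.

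The peaks were unevenly divided among the loci. KAT5 and RUVBL2 had 17 peaks each over the 3 lists, RUVBL1 9, BRD8 8, EP400 7, TRRAP and ING3 6 each, YEATS4 5, EPC1 4 and DMAP1 2. KAT5 held 10 of the 23 16HBE14o- BRD8 peaks and 2 of the Calu3 ones. RUVBL2 held 7 of the 26 Calu3 BRD8 peaks and 2 of the 16HBE14o- ones. EP400 had 5 BRD8 peaks in Calu3 and 0 in 16HBE14o-, whereas EPC1 had 0 and 1. RUVBL1 had 3 and 3, ING3 2 and 2, TRRAP and YEATS4 1 and 2 each, DMAP1 1 and 0, and BRD8 4 and 1.

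**Figure D1:**
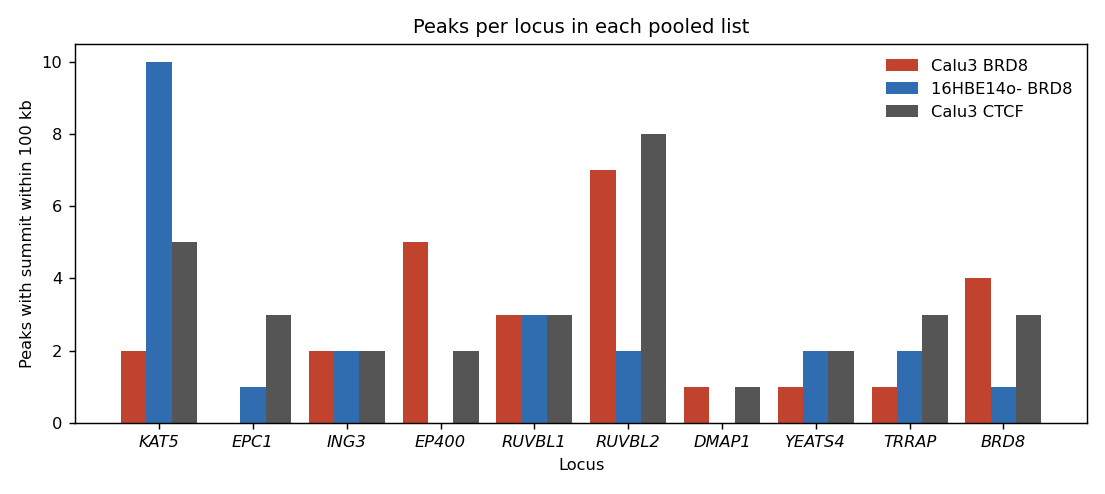
Number of peaks with a summit within 100 kb of each gene start (vertical axis) at the 10 loci (horizontal axis), with 1 bar for each pooled list. KAT5 stands out in the 16HBE14o- BRD8 list with 10 peaks, and RUVBL2 in the Calu3 BRD8 list with 7 and in the CTCF list with 8.

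**Figure D2:**
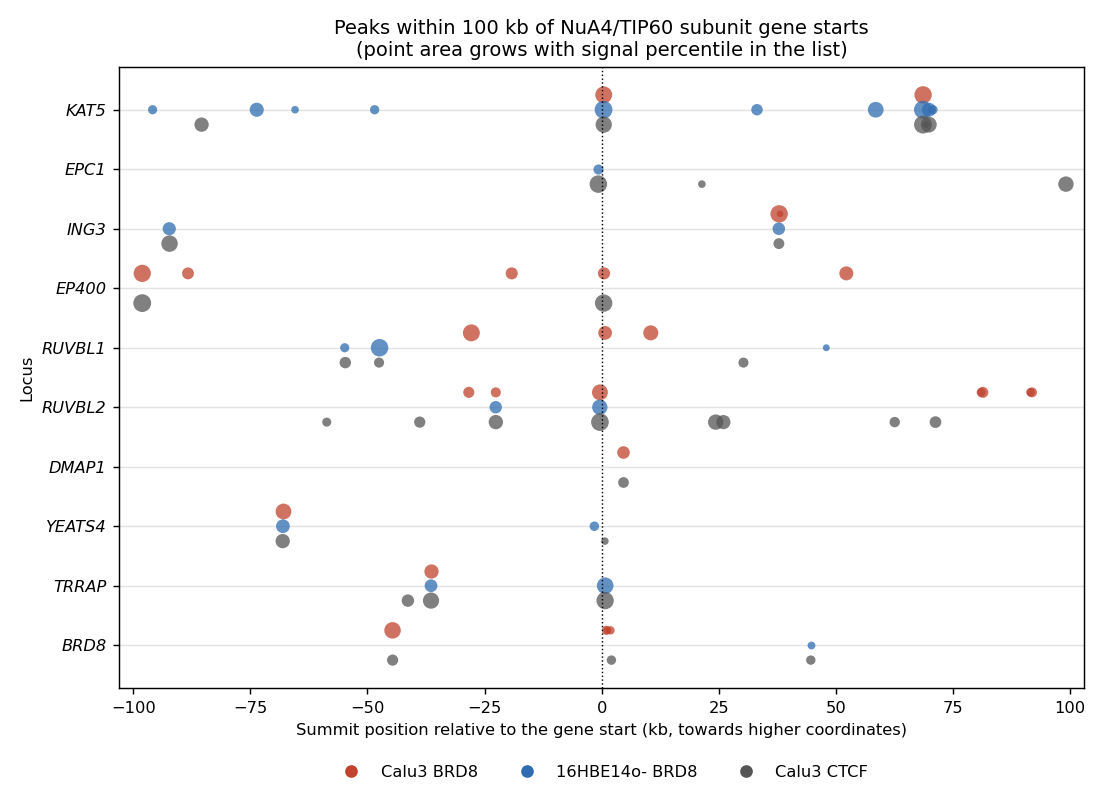
Position of each of the 81 summits relative to the gene start (horizontal axis, kb, towards higher coordinates) at the 10 loci (vertical axis). Colours stand for the 3 lists, and the area of a point grows with the percentile of its signal within its list. All 3 colours meet at the starts of KAT5 and RUVBL2, and there is no point within 2 kb of the starts of DMAP1 and ING3.

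At the starts themselves, a BRD8 summit of either line lay within 2 kb for 8 of the 10 genes. In Calu3 these were BRD8, EP400, KAT5, RUVBL1 and RUVBL2, and in 16HBE14o- EPC1, KAT5, RUVBL2, TRRAP and YEATS4, 5 starts in each. KAT5 and RUVBL2 were common to both lines. A CTCF summit lay within 2 kb of 6 starts: EP400, EPC1, KAT5, RUVBL2, TRRAP and YEATS4. For comparison, 1.05% of genome tiles of 4 kb held a Calu3 BRD8 summit, 1.21% a 16HBE14o- BRD8 summit and 1.98% a CTCF summit. Tiles are placed without regard to genes, and the share over all gene starts was not measured here. Because the starts are known to 1 kb only, the distances below do not place a summit before or after a start.

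The CTCF peaks at the starts ranked high in their list. The rank is given as a percentile of the authors' signal within its own list, where 100 is the strongest end. The 6 start-proximal CTCF peaks had a median percentile of 93.9, against 36.9 for the 26 CTCF peaks farther away, and 5 of the 6 were above the middle of the list. YEATS4 was the exception at 10.5. In Calu3 the 7 BRD8 peaks at 5 starts had a median of 41.5 and the 19 others 45.3, but the BRD8 start alone held 3 weak peaks of the 7. With the strongest peak of each start the median was 55.6, and without the BRD8 start 66.4, both above that of the others. The order of these medians thus rests on the BRD8 start. Both steps took weak peaks from the start-proximal side only and could only raise its median. They therefore do not show that Calu3 BRD8 ranked higher at the starts. In 16HBE14o- the 5 start-proximal BRD8 peaks had a median of 71.4 and the 18 others 44.3. Over all distances the medians were 43.4 for Calu3 BRD8, 44.7 for 16HBE14o- BRD8 and 52.0 for CTCF, close to the middle of each list. They depended in part on single windows. Without KAT5 they were 41.2, 44.7 and 38.0, and without RUVBL2 58.0, 44.7 and 52.3.

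**Figure D3:**
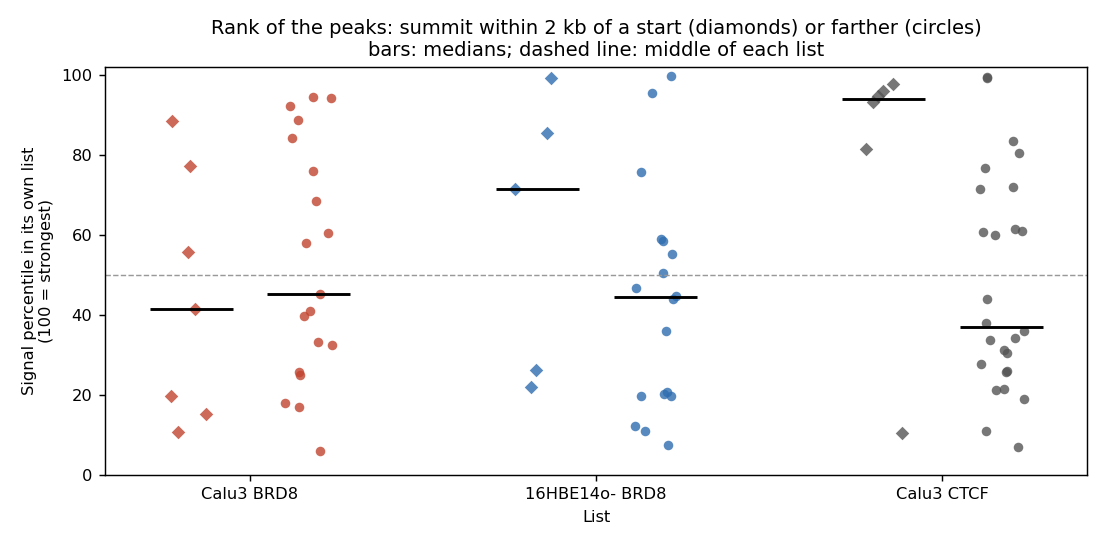
Percentile of each peak's signal within its own list (vertical axis, 100 the strongest) for the 3 lists (horizontal axis). Diamonds are peaks with a summit within 2 kb of a gene start, circles the other peaks of the 10 windows and bars the medians. The CTCF diamonds lie between 81.5 and 97.7 except for YEATS4 at 10.5, and the Calu3 BRD8 diamonds are spread from 10.7 to 88.3.

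The catalytic part of the complex is KAT5 with EPC1, which links the enzyme to the rest of the complex, and ING3, whose plant homeodomain finger reads methylated histone tails. At the KAT5 start (11q13.1) all 3 lists had a peak. The 16HBE14o- BRD8 peak (hg19 chromosome 11, 65479274 to 65479497) had a signal of 84.1 and rank 79, at the 99.2 percentile. The Calu3 BRD8 peak (65479187 to 65479662) had a signal of 59.7 and rank 1144, at the 88.3 percentile. The CTCF peak (65479375 to 65479495) had a signal of 105 and rank 3043, at the 81.5 percentile. The Calu3 BRD8 and CTCF summits were 2 bp apart and the 16HBE14o- BRD8 summit 39 bp from the Calu3 one. Here BRD8 stood higher in its 16HBE14o- list than CTCF did in its own, which was not so at the start of RUVBL2.

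A second site of all 3 lists lay 68.6 kb from the KAT5 start and held the highest-ranking 16HBE14o- BRD8 and CTCF peaks of the 10 windows. There 16HBE14o- BRD8 (65547441 to 65547664) ranked 31 with a signal of 99.0, CTCF (65547383 to 65547726) ranked 94 with a signal of 282, and Calu3 BRD8 (65547488 to 65547700) ranked 562 with a signal of 76.4. The BRD8 and CTCF summits there were 26 bp apart in Calu3 and 11 bp for 16HBE14o-. A further 16HBE14o- peak 69.8 kb away (rank 3950) overlapped a CTCF peak of rank 3842.

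The other 7 16HBE14o- BRD8 peaks of the KAT5 window were listed in that line alone, with no overlapping Calu3 peak of either protein. They ran from 95.9 kb on the lower side (summit at -95.9 kb) to 70.7 kb on the higher side, with percentiles from 11.0 to 75.7. The strongest lay at 58.5 kb (rank 2315, percentile 75.7) and at -73.6 kb (rank 3906, percentile 58.9), followed by one at 33.1 kb (rank 6097). The window therefore held 8 16HBE14o- peaks that no Calu3 BRD8 peak overlapped and 0 Calu3 BRD8 peaks without a 16HBE14o- peak. A lack of counterparts was common in the lists as a whole. There, 43.4% of 16HBE14o- BRD8 peaks overlapped a Calu3 BRD8 peak, and 28.6% overlapped neither Calu3 list. Of all Calu3 BRD8 peaks, 50.1% overlapped a 16HBE14o- BRD8 peak. Over the whole of 11q the lists held 440 16HBE14o- and 335 Calu3 BRD8 peaks.

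EPC1 (10p11.22) had a single BRD8 peak in its window, in 16HBE14o-, at -0.739 kb from the start (chromosome 10, 32635150 to 32635373, signal 24.4, percentile 26.2). It overlapped a strong CTCF peak (32635156 to 32635407, signal 210, rank 672, percentile 95.9). No Calu3 BRD8 summit was listed on a stretch of 2.22 Mb around the start, in which Calu3 had 6 CTCF peaks and 16HBE14o- 1 BRD8 peak. From the 16HBE14o- peak towards higher coordinates, the 16HBE14o- BRD8 list was empty for 3.22 Mb, on which Calu3 had 3 BRD8 and 9 CTCF peaks. This CTCF count includes the peak at the EPC1 start itself, with its summit 16 bp from the 16HBE14o- BRD8 summit. Both BRD8 lists were thus sparse here. The order of the lines in the window differed from that of 10p, which held 79 Calu3 and 9 16HBE14o- BRD8 peaks, but it rests on 1 peak. The other 2 CTCF peaks of the window lay at 21.4 and 99.1 kb and had no BRD8.

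ING3 (7q31.31) had no peak within 2 kb of its start. Its strongest BRD8 site lay 37.9 kb away (chromosome 7, 120627627 to 120628102), where Calu3 BRD8 ranked 551 with a signal of 77.0, the highest rank of any Calu3 BRD8 peak near the 10 genes. 16HBE14o- BRD8 (rank 5256) and CTCF (rank 11276, percentile 31.3) were listed at the same site, so that BRD8 was strong in Calu3 at a CTCF peak of the weaker part of its list. A neighbouring Calu3 summit at 38.1 kb was the weakest of the Calu3 BRD8 peaks here, at the 5.95 percentile. At -92.3 kb, 16HBE14o- BRD8 (rank 4708) overlapped a CTCF peak of rank 2728.

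The next group forms the ATP-dependent side of the complex. EP400 is the ATPase that exchanges histone variants, RUVBL1 and RUVBL2 are AAA+ ATPases that form a ring, DMAP1 is a subunit with a SANT domain, and YEATS4 binds acylated lysine through its YEATS domain. At the EP400 start (12q24.33) Calu3 BRD8 (chromosome 12, 132434249 to 132434724) had a signal of 29.3 and a percentile of 41.5. The CTCF peak there (132434283 to 132434545) had a signal of 197, rank 877 and percentile 94.7, with summits 73 bp apart. The strongest BRD8 peak of the window lay near its border at -98.1 kb (132335690 to 132336165, rank 763, percentile 92.2), 1 bp from the summit of a CTCF peak of rank 129. The other 3 Calu3 BRD8 peaks, at -88.3, -19.2 and 52.2 kb, overlapped neither 16HBE14o- BRD8 nor CTCF, and ranked 5898, 5775 and 4108.

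The absence of 16HBE14o- BRD8 peaks at EP400 extended far beyond the window. The last 16HBE14o- summit on chromosome 12 stood at 127765422, which leaves 6.09 Mb to the end of the chromosome without one. On the same stretch Calu3 had 22 BRD8 and 54 CTCF peaks. By length the stretch ranked 45 of 9528 between neighbouring 16HBE14o- summits or chromosome ends, and the median was 0.0872 Mb. Whether this part of chromosome 12 is present in full in 16HBE14o- was not measured, and a lack of BRD8 and a lack of DNA cannot be told apart from these lists. The missing 16HBE14o- peak at the EP400 start is thus part of a stretch and was not confined to the gene.

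RUVBL1 (3q21.3) showed 3 BRD8 peaks in each line and 0 in common. Over the whole lists, 50.1% of Calu3 and 43.4% of 16HBE14o- BRD8 peaks overlapped a BRD8 peak of the other line. With 3 peaks in each line, the lack of common sites does not set this locus apart. The Calu3 BRD8 peaks lay at -27.8 kb (chromosome 3, 127813938 to 127814413, rank 1111, percentile 88.6), at 0.718 kb from the start (127842481 to 127842956, signal 34.1, percentile 55.6) and at 10.5 kb (rank 3094). None of them overlapped CTCF, and the nearest CTCF summits were 19.7, 29.5 and 19.8 kb away. In 16HBE14o- the peaks lay at -47.4 kb (127794468 to 127794691, rank 426, percentile 95.5), -54.9 kb and 47.9 kb, and the first 2 of these overlapped CTCF peaks of percentiles 26.0 and 35.9. By percentile within its own list, the peak of rank 426 stood highest among the BRD8 peaks near the 10 genes without a counterpart in the other line. The arm 3q held 820 Calu3 and 251 16HBE14o- BRD8 peaks, a preponderance of Calu3 that the even count at RUVBL1 did not share.

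RUVBL2 (19q13.33) was, with KAT5, the second gene with all 3 lists at its start. CTCF (chromosome 19, 49496480 to 49496749) had a signal of 234, rank 386 and percentile 97.7. Calu3 BRD8 (49496380 to 49496855) had a signal of 46.3 and percentile 77.2, and 16HBE14o- BRD8 (49496476 to 49496699) a signal of 35.5 and percentile 71.4. The summits of Calu3 BRD8 and CTCF were 2 bp apart and those of the BRD8 lists 30 bp. A second site of all 3 lists stood at -22.6 kb, with percentiles of 25.7, 43.9 and 61.4 in Calu3 BRD8, 16HBE14o- BRD8 and CTCF. The other 5 Calu3 BRD8 peaks of the window overlapped no other list, had percentiles from 16.9 to 33.2 and included pairs of adjoining summits at 81.0 and 81.3 kb and at 91.5 and 91.8 kb. Of the 8 CTCF peaks, 6 had no BRD8 in either line.

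DMAP1 (1p34.1) had the fewest peaks. Calu3 BRD8 (chromosome 1, 44683320 to 44683795, percentile 45.3) and CTCF (percentile 30.5) coincided 4.56 kb from its start, and the nearest 16HBE14o- BRD8 summit was 101 kb from that peak. YEATS4 (12q15) had 1 site of all 3 lists at -68.0 kb, with percentiles of 76.0, 55.2 and 60.6 in Calu3 BRD8, 16HBE14o- BRD8 and CTCF. Nearer to its start, a weak 16HBE14o- BRD8 peak at -1.58 kb (chromosome 12, 69751312 to 69751535, percentile 21.9) and a weak CTCF peak at 0.673 kb (percentile 10.5) did not overlap, with summits 2.25 kb apart.

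TRRAP is the large scaffold that contacts transcriptional activators, and BRD8 is the subunit under study. At the TRRAP start (7q22.1), 16HBE14o- BRD8 (chromosome 7, 98476624 to 98476847, signal 42.8, rank 1394, percentile 85.3) overlapped a CTCF peak (98476604 to 98476852, signal 182, rank 1139, percentile 93.1). No Calu3 BRD8 peak was listed there, and the nearest lay 37.2 kb away. That Calu3 peak, at -36.5 kb (rank 3858), belonged to a site of all 3 lists, with 16HBE14o- BRD8 at the 46.7 percentile and CTCF at rank 3204. From its summit, the Calu3 BRD8 list was empty for 1.09 Mb, on which 16HBE14o- had 5 BRD8 peaks and Calu3 6 CTCF peaks. These counts include the 16HBE14o- BRD8 and CTCF summits of the shared site itself, 49 and 42 bp from the Calu3 BRD8 summit.

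At the start of its own gene (5q31.2), BRD8 was listed in Calu3 only, as 3 neighbouring weak peaks at 0.987, 1.19 and 1.87 kb from the start. They spanned chromosome 5, 137514750 to 137516106, with signals of 22.6, 14.8 and 19.2 and percentiles of 19.7, 10.7 and 15.1. The last of them overlapped a weak CTCF peak at 2.06 kb (percentile 21.4). The nearest 16HBE14o- BRD8 summit to the start stood at 44.7 kb (percentile 12.1), again on a weak CTCF peak. The strongest BRD8 peak of the window was in Calu3 at -44.6 kb (137469117 to 137469592, signal 53.0, rank 1549, percentile 84.2), on a CTCF peak of percentile 33.7. Low-ranking BRD8 peaks thus lay near the start of the BRD8 gene, whereas those at KAT5 ranked high. The BRD8 gene is read on the - strand, and the 3 peaks lay towards higher coordinates, where KIF20A is the next gene. To which gene they belong was not tested.

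Promoter sequences are shown for 4 of these genes, to set a start where both proteins ranked high (KAT5), one with strong CTCF and weaker BRD8 (EP400), one with all 3 lists and a CTCF-like core (RUVBL2) and the BRD8 gene. They come from RefSeq on GRCh38.p14 and give the 250 bases before a start, 5′ to 3′ on the gene's strand. That build differs from the hg19 of the peaks, so no base of them is placed inside or outside a peak. The table held 11 starts for 8 of the 10 genes. Capitals mark matches to CNAGGNGGC, the central part of the CTCF binding motif, searched on both strands.
RUVBL2, chr19:48993198-48993447, + strand, the first of 2 starts: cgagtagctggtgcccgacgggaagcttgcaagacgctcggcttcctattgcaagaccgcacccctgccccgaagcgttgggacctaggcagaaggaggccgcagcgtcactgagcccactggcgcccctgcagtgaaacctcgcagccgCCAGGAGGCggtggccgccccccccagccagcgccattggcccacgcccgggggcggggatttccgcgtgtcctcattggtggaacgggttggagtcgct
BRD8, chr5:138178631-138178880, - strand: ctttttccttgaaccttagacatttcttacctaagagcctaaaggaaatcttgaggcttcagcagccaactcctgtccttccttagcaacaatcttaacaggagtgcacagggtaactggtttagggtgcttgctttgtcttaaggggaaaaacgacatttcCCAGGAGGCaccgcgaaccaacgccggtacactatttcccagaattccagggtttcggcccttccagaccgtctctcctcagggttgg
KAT5, chr11:65712002-65712251, + strand: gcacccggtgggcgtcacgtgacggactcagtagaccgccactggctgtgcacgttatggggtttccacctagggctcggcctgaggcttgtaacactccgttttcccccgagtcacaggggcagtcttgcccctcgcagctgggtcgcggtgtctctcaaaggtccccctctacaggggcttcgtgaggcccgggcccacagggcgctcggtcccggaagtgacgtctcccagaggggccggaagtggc
EP400, chr12:131949692-131949941, + strand: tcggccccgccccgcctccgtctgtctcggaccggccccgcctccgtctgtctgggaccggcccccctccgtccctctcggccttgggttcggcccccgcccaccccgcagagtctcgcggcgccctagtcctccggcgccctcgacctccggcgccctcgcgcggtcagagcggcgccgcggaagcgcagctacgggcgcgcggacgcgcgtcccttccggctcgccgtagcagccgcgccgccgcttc

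In windows of 300 bases, which add the first 50 transcribed bases, 2 of the 11 held the core. RUVBL2 had CCAGGAGGC at -100 to -92 and CCAGGGGGC at 32 to 40, counted from 1 at the first transcribed base, and BRD8 had CCAGGAGGC at -88 to -80. Of 35116 such windows over all genes listed, 10.6% held it. KAT5 and EP400 had no match in these windows. The 11 windows ranged from 49.7 to 79.0% G and C, with EP400 the highest, against a median of 58.7% over the table, and from 9 to 51 CpG sites against a median of 14. The matches are a description of letters and not of binding.

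BRD8 sites common to both lines were a minority of these peaks, at shares not distinguishable from those of the whole lists. Of the 26 Calu3 BRD8 peaks 8 overlapped a 16HBE14o- peak by at least 1 bp, or 30.8% (95% exact Clopper-Pearson interval 14.3 to 51.8%), beside 50.1% of the whole list. Of the 23 16HBE14o- peaks 7 overlapped a Calu3 peak, 30.4% (13.2 to 52.9%), beside 43.4%. Both intervals, which cover counting error only and treat neighbouring peaks as independent, include the value of the whole list. With windows of 200 kb on each side, 50% of 56 Calu3 peaks were shared. All of the common sites within 100 kb carried a CTCF peak, as did 86.3% of regions with BRD8 of both lines over the genome. They were the KAT5 start and its site at 68.6 kb, the RUVBL2 start and its site at -22.6 kb, and the sites at ING3, TRRAP and YEATS4, 7 of the 51 regions that the peaks formed when overlapping peaks of all lists were joined (13.7%). Over the genome 16.8% of regions held all 3 lists.

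BRD8 without CTCF made up much of the rest. Of the 51 regions 19 held BRD8 with no listed CTCF peak, 37.3%, beside 24.2% of all regions. They were 10 regions of Calu3 alone and 9 of 16HBE14o- alone, and 7 of the latter lay at KAT5. Calu3 BRD8 peaks overlapped CTCF in 13 of 26 cases, 50% (29.9 to 70.1%), beside 70.5% of the list, a value just above the interval. With overlapping peaks merged the share was 54.5% of 22 regions, and with windows of 200 kb on each side 67.9% of 56 peaks, so it depended on the window. 16HBE14o- BRD8 peaks did so in 14 of 23 cases, 60.9% (38.5 to 80.3%), beside 65.3%, and without the KAT5 window in 11 of 13 cases, 84.6% (54.6 to 98.1%). From the side of CTCF, 12 of 32 peaks carried Calu3 BRD8 (37.5%, 21.1 to 56.3%) and 14 of 32 16HBE14o- BRD8 (43.8%, 26.4 to 62.3%), beside 36.1% and 38.0%. Because CTCF was mapped in Calu3 alone, CTCF of 16HBE14o- at these sites is unknown.

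**Figure D4:**
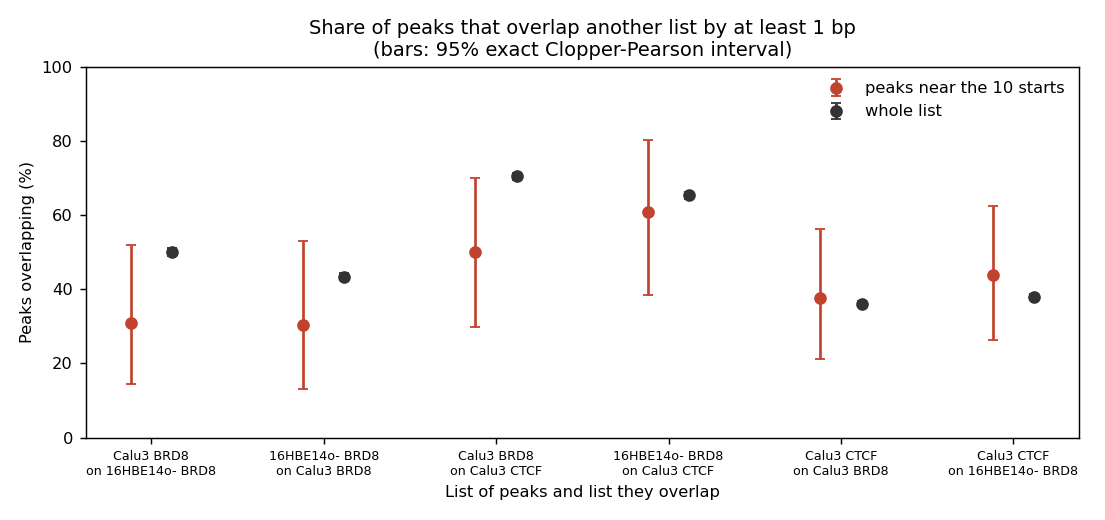
Share of peaks (vertical axis, %) that overlap another list by at least 1 bp, for 6 pairs of lists (horizontal axis). Points in red are the peaks near the 10 starts and in black the whole list, with 95% exact Clopper-Pearson intervals. The gap between points is widest for Calu3 BRD8 on CTCF, 50% against 70.5%, and all other red intervals include the value of the list.

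Peaks on neither other list were 13 of 26 in Calu3 BRD8, where the whole list had 22.8%, and 9 of 23 in 16HBE14o- BRD8, where it had 28.6%. The 13 of Calu3 lay at RUVBL2 (5), RUVBL1 (3), EP400 (3) and BRD8 (2), and as overlapping neighbours some of them share 1 site. In Calu3 the BRD8 peaks on CTCF had a median percentile of 76.0 and those off CTCF 33.2. In 16HBE14o- the medians were 52.8 and 20.6. The same split is not given for the whole lists, so these medians do not set the loci apart from them. For peaks off CTCF the distance to the closest CTCF summit had a median of 12.4 kb in Calu3 (13 peaks) and 11.8 kb in 16HBE14o- (9 peaks). Such peaks in the whole lists had medians of 24.7 and 47.6 kb. The windows held a mean of 3.2 CTCF peaks, against 1.08 per genome tile, and 7 of the 9 16HBE14o- peaks lay at KAT5. These distances therefore do not set the BRD8 peaks off CTCF apart from those at other genes. Overlapping BRD8 and CTCF summits were a median of 26 bp apart in Calu3 (1 to 258 bp over 13 pairs) and 28 bp for 16HBE14o- (7 to 121 bp over 14 pairs), with list medians of 39 and 19 bp.

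At the border of the windows, the outermost Calu3 BRD8 peak inside was the one at -98.1 kb from EP400 (percentile 92.2), and the nearest outside lay at -101 kb from BRD8 (percentile 81.6). For 16HBE14o- BRD8 they were at -95.9 kb from KAT5 (19.8) and -101 kb from TRRAP (80.3), and for CTCF at 99.1 kb from EPC1 (71.9) and 104 kb from RUVBL1 (84.2).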

How the data were processed

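ChIP-seq of 6 samples, 2 replicates of each of 3 experiments, was deposited as 3 peak lists. According to the design text, both replicates went into each list by the irreproducible discovery rate (IDR), which favours peaks of like rank in either replicate. Per the file headers the lists are narrowPeak on hg19, also the build in the submitters' processing notes. The aligner, peak caller, control and IDR settings are not given in the sources used here. Ranks rest on the deposited signal column, whose normalization is unknown, and signals of different lists were not compared. The deposited score columns were not used, except the one in the place of q-values as an alternative for ranking. Of the other deposited columns, the p-value column holds a placeholder and was not used, and the last gives the summit.

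Members were peaks with column 2 plus column 10 within 100 kb of the given starts. All 10 loci are named with their peaks within 2 kb, their 10 strongest peaks per list, sites of all lists, the strongest BRD8 peaks without CTCF and the border peaks. Members, lists and settings were chosen with earlier results of these data known. Stretches without a summit, distances to the nearest peak, promoters, the leaving out of a window or start and the strongest peak per start were added after the data were seen, and CNAGGNGGC is 1 of 5 forms of the core tried. No annotation on hg19 was used, so other subunits were not counted and no peak was assigned to an exon or intron. Peaks were compared with pandas 2.3.3, numpy 2.4.6 and scipy 1.17.1 under Python 3.11.15, checked on simulated data, and gave the same counts as bedtools 2.31.1. Arms and chromosome lengths came from circlize 0.4.16 and figures from matplotlib 3.10.9.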

Additional observations from a re-analysis of the deposited data

How the results depend on the processing

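Under the alternative settings, 89 values stayed within 1.5 times the count reported or within the 95% interval of the share or median, and 15 did not. For the shares this is a weak limit, because their intervals are wide. The Calu3 BRD8 share on CTCF counted as unmoved at 67.9% with windows of 200 kb on each side, beside 50% as reported. Counts followed the window by construction: within 50 kb there were 17 Calu3 BRD8, 13 16HBE14o- BRD8 and 20 CTCF peaks, and within 200 kb 56, 52 and 76. In the upper 50% of each list by signal the counts were 12, 10 and 16, and 3 starts had a BRD8 summit within 2 kb in Calu3 and 3 in 16HBE14o-. When at least 50% of both peaks had to overlap, 3.85% of Calu3 and 4.35% of 16HBE14o- BRD8 peaks were shared, at median widths of 476 and 224 bp. A peak of 224 bp cannot cover 50% of one of 476 bp, so pairs of these widths could not pass. The shares under this rule therefore do not measure how many sites the lines had in common. Without the KAT5 window 13 16HBE14o- BRD8 peaks remained, of which 84.6% overlapped CTCF. Leaving out the RUVBL2 window moved no share, count or median by these limits, although the Calu3 BRD8 median percentile went from 43.4 to 58.0. The CTCF median went from 52.0 to 38.0 without the KAT5 window and also counted as unmoved. For the medians too, this is thus a weak limit. Settings for overlap and width left the Calu3 BRD8 share on CTCF between 34.6% and 46.2%, and that of 16HBE14o- between 52.2% and 60.9%. The shares of the whole lists under these settings are not given here. These values therefore cannot be set beside the list shares above, which rest on an overlap of 1 bp. No paired analysis was possible because each list pools its 2 replicates, and leaving out a replicate could not be run for the same reason. With 23 to 32 peaks per list, the 95% intervals of the shares are wide, and a share whose interval includes the value of its list was not distinguishable from it at this number of peaks.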
